A study of Mus musculus with 20 samples.

Results

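The 9 genes Adcy1 to Adcy9, which encode the membrane-bound adenylate cyclases, were followed in bulk RNA sequencing of mouse microglia, the resident macrophages of the brain. The genes were selected on measured values: the family was taken up because Adcy8 differed by region label and by stage, so the region and stage values of Adcy8 are given as a description with no test. They are 9 of the 55487 genes in the count table, all 9 were found by symbol, and 7 of the 9 were among the 16595 genes that passed the filter on low counts. The study had 20 libraries from 10 mice, each mouse giving 1 library labelled cortex and 1 labelled brainstem, at 2 months (6 mice) or at an unstated age called end-stage (4 mice).

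Mutant mice carried Cx3cr1CreER as 1 copy together with the Braf LSL-V600E allele, in which Cre recombination switches on the V600E form of the kinase BRAF, a driver of histiocytosis. All litters, controls included, had the same exposure: pregnant females were given 1 injection of 37.5 mg per kg 4-hydroxytamoxifen at embryonic day 9.5, when Cx3cr1 is active in the yolk sac progenitors of microglia. Of the controls, mouse M1375 at end-stage carried the Braf allele without Cre (Cx3cr1 wild type) and the others carried Cre with wild-type Braf. The 2-month mice were 3 mutants and 3 controls, and the end-stage mice 2 of each. Cre in this line is driven by a gene that other macrophages also use, and recombination in a pulse need not reach every cell.

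At 2 months the labels conflict. For 5 of the 6 mice the number in the title differs from the number in the column name, and the genotype was taken from the number in the column name (mutants M2617, M2621 and M2624, controls M2618, M2629 and M2633). Reading the genotype from the sample record instead changes it for 4 of the 6 mice, so 2-month genotype values are given under both readings where they differ. The region labels are also in doubt. The summed level of 12 Hox and other genes of hindbrain position favoured the library labelled cortex in 10 of 10 mice. It was 2.15 ± 0.94 against 0.64 ± 0.33 CPM (SD, n = 10), where CPM is the count scaled to a common library total. The sum of 8 genes of cortex tissue was larger with the cortex label in 5 of 10 mice (0.63 ± 0.44 against 0.71 ± 0.56 CPM). Both sums are low, and Hoxb4, the most counted hindbrain gene, had 225 counts in all. Libraries are therefore named here by their label, as cortex-labelled or brainstem-labelled. Library totals ran from 9395203 to 21171114 counts. Markers of microglia were high in all of them (13 of 13 genes, summed 47186 to 84125 CPM) and 12 neuronal markers summed to 0.16 to 22.6 CPM.

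Adenylate cyclases convert ATP to cyclic AMP, the second messenger that activates protein kinase A, the exchange factors EPAC and, through CREB, transcription. The stimulatory G protein Gs turns them on and the inhibitory Gi proteins turn several of them off, which places the family downstream of microglial receptors such as the Gi-coupled ADP receptor P2RY12. Members differ in their other inputs: Adcy1, Adcy3 and Adcy8 belong to the calcium- and calmodulin-stimulated enzymes, Adcy2, Adcy4 and Adcy7 are enhanced by G protein beta-gamma subunits, Adcy5 and Adcy6 are inhibited by calcium, and Adcy9 is the member least sensitive to the drug forskolin. ADCY7 is known as a prominent form in blood and immune cells, and ADCY1 and ADCY8 as forms of neurons.

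The promoter windows of the family are shown for its most and its least abundant member, since the pair differ in their number of CG dinucleotides. RefSeq windows (GRCm38.p6, 250 bases before to 50 bases after an annotated start, 5′ to 3′ on the gene's strand) were found for 7 of the 9 members. CG dinucleotides are in capitals. The Adcy7 window is chr8:88282742-88283041 (+) and the Adcy1 window is chr11:7063183-7063482 (+).
Adcy7: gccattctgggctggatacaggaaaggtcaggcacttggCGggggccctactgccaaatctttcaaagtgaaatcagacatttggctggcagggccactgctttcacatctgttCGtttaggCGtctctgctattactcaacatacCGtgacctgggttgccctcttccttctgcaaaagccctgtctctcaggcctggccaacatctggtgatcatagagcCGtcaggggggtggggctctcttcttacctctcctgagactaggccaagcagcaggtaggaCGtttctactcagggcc
Adcy1: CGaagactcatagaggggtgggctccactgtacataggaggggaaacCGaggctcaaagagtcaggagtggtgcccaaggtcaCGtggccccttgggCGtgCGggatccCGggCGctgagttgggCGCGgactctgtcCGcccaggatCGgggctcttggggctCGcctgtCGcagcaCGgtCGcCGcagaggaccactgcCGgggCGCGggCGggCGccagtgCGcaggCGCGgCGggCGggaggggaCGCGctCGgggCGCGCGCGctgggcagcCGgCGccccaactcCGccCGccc
The Adcy7 window held 6 CG dinucleotides and its other 2 annotated windows held 5 and 4, against 37 in Adcy1. Over all 32851 windows of 300 bases the median was 7, and 47.9% held no more than the Adcy7 window shown. Adcy2 (32), Adcy5 (44) and Adcy9 (42) also had CG-rich windows, Adcy4 had 16, and Adcy3 had 33 in one window and 7 in the other. Which start was used in these cells was not measured, and the windows are a description of the sequence only.

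Per length of exon, Adcy7 stood far above the rest of the family. Its median over the 20 libraries was 18.8 CPM per kb (7.45 to 48.6), which made up a median of 85.6% of the summed family level per kb (63.0% to 94.3%). Adcy9 followed with a median of 1.53 CPM per kb (0.937 to 2.46) and Adcy3 with 1.25 (0.476 to 3.67), and these ranges overlapped. Adcy8 had a median of 0.259 CPM per kb and ran from 0 in 3 libraries to 1.62. Adcy6 was at 0.136 CPM per kb (0.0450 to 0.457).

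The remaining members were close to the limit of detection. Adcy5 had 108 counts in all, in 12 of 20 libraries, with a highest level of 1.64 CPM in the cortex-labelled library of control M2618. Adcy4 had 95 counts, in 9 libraries, up to 1.44 CPM. Adcy2 had 15 counts in 2 libraries and Adcy1, at 3 counts in 3 libraries, was the least abundant member. Adcy1 and Adcy2 did not pass the filter and enter no test. Adcy4 and Adcy5 passed through a few libraries each, and none of their differences passed the test in any of the 15 comparisons.

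**Figure D1:**
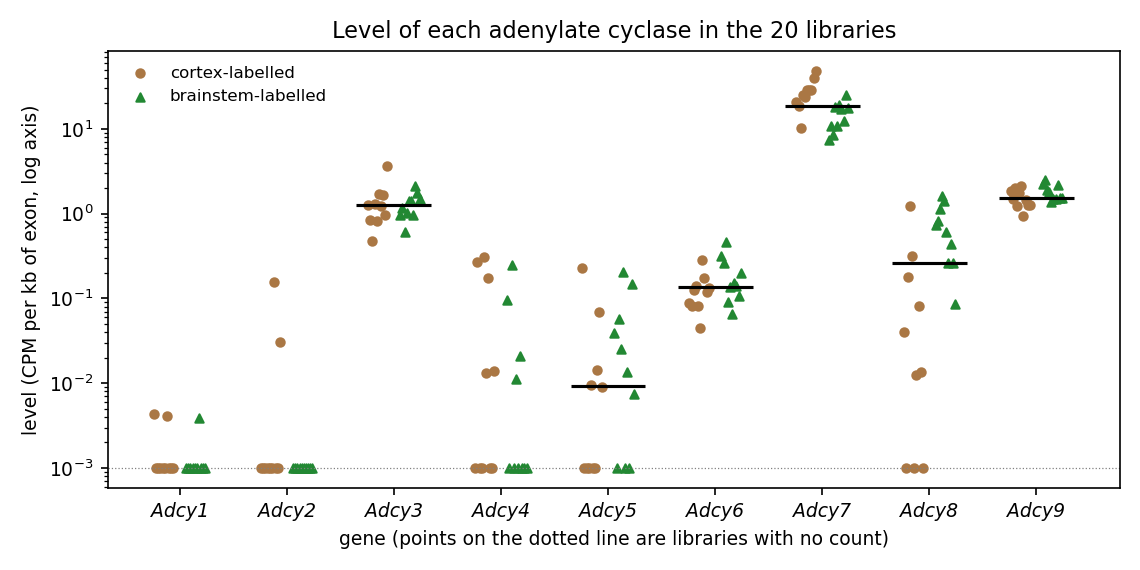
Level of each of the 9 genes in the 20 libraries, in scaled counts (CPM) per kb of exon on a log axis, with circles for cortex-labelled and triangles for brainstem-labelled libraries and a line at the median. Adcy7 has a median of 18.8 CPM per kb, while Adcy1 is at 0 in 17 libraries and Adcy2 in 18.

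Adcy8, a calcium-stimulated cyclase on chromosome 15 (GRCm38, 64697084 to 64922296, minus strand), was lower in the cortex-labelled than in the brainstem-labelled library of all 10 mice. In 2-month controls the levels were 0.328 and 5.94 CPM in mouse M2618, 0 and 6.75 in mouse M2629, and 1.45 and 9.35 in mouse M2633, cortex-labelled first. In 2-month mutants they were 0 and 4.90 CPM in mouse M2617, 0.103 and 2.11 in mouse M2621, and 0.669 and 3.59 in mouse M2624. At 2 months the groups of libraries with the 2 region labels did not overlap within either genotype.

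At end-stage the controls stood higher in both libraries. Control M1375 had 10.1 CPM in the cortex-labelled and 13.2 CPM in the brainstem-labelled library, and control M1521 had 2.60 and 11.5 CPM. The end-stage mutants had 0.109 and 2.11 CPM in mouse M1376 and 0 and 0.705 CPM in mouse M1524. The cortex-labelled library of mouse M1375, the control without Cre, was thus the only cortex-labelled one above 3 CPM. Where no read was counted, up to 3 counts cannot be seen, equal to 0.150 CPM in mouse M2629, 0.183 CPM in mouse M2617 and 0.195 CPM in mouse M1524. This limit covers counting error only.

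On the log2(CPM + 0.1) scale the within-mouse difference, cortex-labelled minus brainstem-labelled, averaged -3.28 ± 1.67 (SD, n = 10 mice). It was -4.17 ± 1.77 in 2-month controls (n = 3), -3.79 ± 1.72 in 2-month mutants (n = 3), -1.25 ± 1.21 in end-stage controls (n = 2) and -3.20 ± 0.28 in end-stage mutants (n = 2). With the genotype from the column name these groups overlap within 1 SD, except that end-stage controls and end-stage mutants are apart on this scale. With 1 CPM added in place of 0.1 CPM those 2 groups were at -1.08 and -1.13, so the pseudocount decides that separation. Under the record reading the 2-month controls were M2617 (-5.64), M2621 (-3.45) and M2629 (-6.1). The 2-month mutants were then M2618 (-3.82), M2624 (-2.26) and M2633 (-2.6), so the 2-month means and their overlap depend on the reading. In all, 1032 of the Adcy8 counts came from brainstem-labelled and 178 from cortex-labelled libraries. These values chose the gene and carry no test. In bulk samples fewer cells with the transcript and less transcript per cell cannot be told apart.

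The neuronal list, given here because ADCY8 is also a form of neurons, had all 12 genes in the table, none at 0 in every library, and 15 of 20 libraries at 0 for Slc17a6. It summed to 3.56 to 22.6 CPM in cortex-labelled and 2.69 to 14.2 CPM in brainstem-labelled control libraries, and to 2.73 to 12.3 and 0.16 to 10.8 CPM in mutants. In 7 of 10 mice its sum was larger with the cortex label, while Adcy8 was lower there. In end-stage mice M1375, M1376 and M1524 the sum was smaller with the cortex label, as Adcy8 was. Both end-stage mutants are among these, at 3.87 against 10.8 CPM (M1376) and 2.73 against 9.05 CPM (M1524). The part of neurons in the Adcy8 region difference was not tested.

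**Figure D2:**
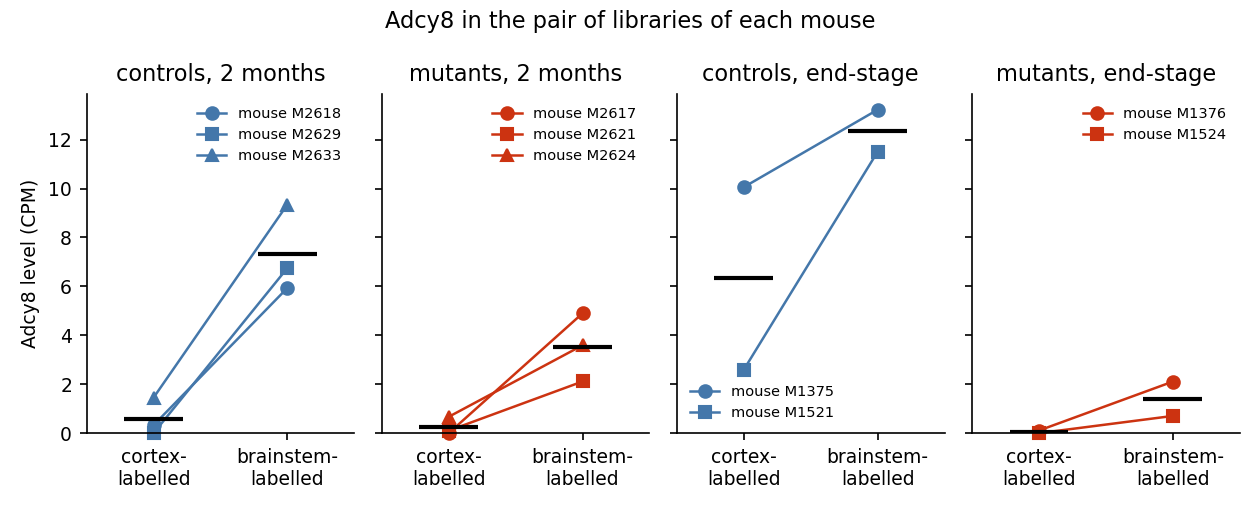
Adcy8 level in CPM in the cortex-labelled and brainstem-labelled library of each mouse, joined by a line, with a black bar at the group mean, for controls and mutants at 2 months and at end-stage. The line rises to the brainstem-labelled library in all 10 mice, and end-stage mutants lie at or below 2.11 CPM.

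The groups were also ordered by mean Adcy8 level, with the 2-month genotype from the column name. The brainstem-labelled groups led: end-stage controls had 12.4 ± 1.21 CPM (SD, n = 2), 2-month controls 7.35 ± 1.78 (n = 3) and 2-month mutants 3.54 ± 1.39 (n = 3). Cortex-labelled end-stage controls, at 6.33 ± 5.28 CPM (n = 2), lay between the last of these, and its spread reaches both. Brainstem-labelled end-stage mutants followed at 1.41 ± 0.993 CPM (n = 2). Cortex-labelled 2-month controls (0.594 ± 0.762, n = 3), 2-month mutants (0.257 ± 0.360, n = 3) and end-stage mutants (0.0545 ± 0.0771, n = 2) closed the order, and from the 2-month brainstem-labelled mutants downward no neighbours differed beyond their spread.

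The genotype comparison asks what the BRAF mutation changes in microglia, and genotype itself was not among the values that chose Adcy8. The region and stage differences that chose it came from the same libraries, however, so the genotype test is not independent of the choice. In cortex-labelled end-stage libraries Adcy8 fell in mutants, with a log2 difference of -6.58 ± 1.58 (SE, adjusted p = 0.0264, edgeR quasi-likelihood test, Benjamini-Hochberg over all genes tested). It was the 1 member called of 7 tested there, where 4.01% of all genes were called. The 2 mutant libraries held 2 counts together and the 2 control libraries 133, of which 95 were from M1375, the control without Cre. Scaled for library size, the ratio of controls to mutants was 93.2 (95% exact binomial interval 25.3 to 778, counting error only). The call was lost with limma-voom and the mouse as a replicate block (adjusted p = 0.0707), without control M1375 (0.211) and without mutant M1376 (0.111) or M1524 (0.182), while the sign stayed negative in all of these. Over all 17 alternatives the adjusted p ran from 1.19e-09 to 0.211 and was below 0.05 in 13. In the same libraries the microglial markers summed to 47186 and 55256 CPM in mutants and 65440 and 69432 CPM in controls. Lists of other cells went both ways. Monocytes were higher in the mutants, at 114 and 196 against 25.4 and 34.6 CPM. So were border-associated macrophages, at 58.6 and 278 against 22.8 and 28.1 CPM, with Siglec1 reaching 218 CPM. Oligodendrocyte precursors (7 genes) were at 37.3 and 88.8 against 5.82 and 6.50 CPM. Over all libraries Cspg4 of that list reached 87.8 CPM and the next gene, Olig1, 3.76 CPM. Neurons were lower in the mutants, at 3.87 and 2.73 against 10.5 and 22.6 CPM. So were B and plasma cells, at 276 and 279 against 842 and 766 CPM. T and NK cells were at 0.491 and 0.130 against 4.87 and 3.70 CPM. The part of these lists in the Adcy8 difference was not tested.

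In the other 3 genotype comparisons Adcy8 was also lower in mutants but did not pass the test. The log2 difference was -3.13 ± 1.18 in brainstem-labelled end-stage libraries (adjusted p = 0.339), where both mutants, at 0.705 and 2.11 CPM, lay below both controls, at 11.5 and 13.2 CPM. It was -1.06 ± 0.89 in brainstem-labelled (0.778) and -1.10 ± 1.08 in cortex-labelled 2-month libraries (0.65). Under the record reading the 2-month differences were +0.46 and +4.25 (edgeR, adjusted p = 1 for each), so its direction by genotype at 2 months depends on the reading. No member was called in brainstem-labelled libraries at end-stage, where 0.151% of all genes were called, by edgeR (1 had an unadjusted p below 0.05) or by DESeq2.

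**Figure D3:**
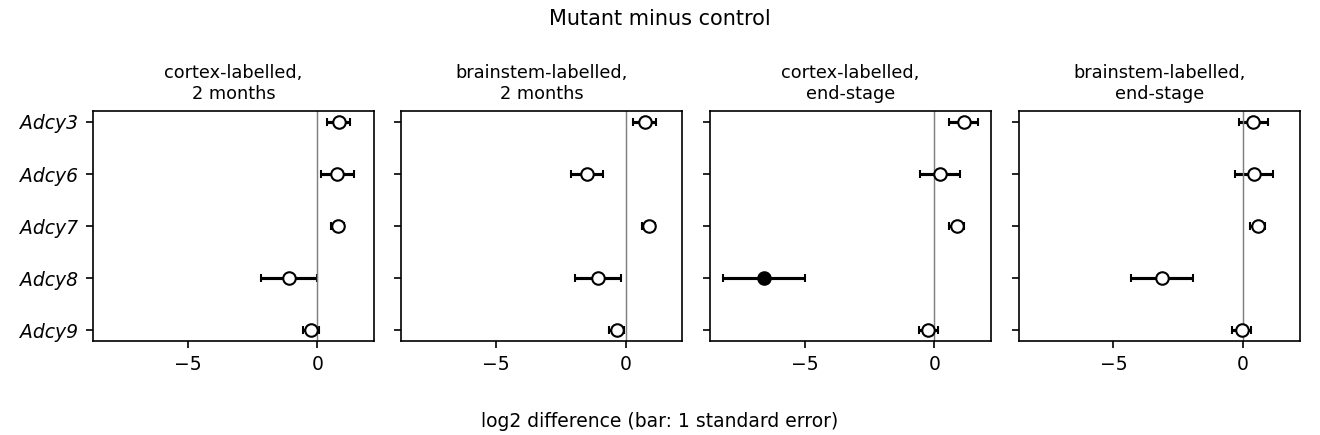
Mutant minus control log2 differences of the 5 members with counts in most libraries, with 1 standard error, in the 4 combinations of region label and stage, and filled points for adjusted p under 0.05. Adcy8 in cortex-labelled end-stage libraries (-6.58) is the 1 filled point, and Adcy7 lies between 0.56 and 0.88 in all 4 panels.

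Adcy7, the beta-gamma-enhanced cyclase that dominates the family here, ran opposite to Adcy8 by region label. It lies on chromosome 8 (GRCm38, 88272403 to 88329962, plus strand). It was higher in the cortex-labelled library of all 10 mice, at 184 ± 72.8 against 99.2 ± 37.8 CPM (SD, n = 10 each), a mean within-mouse log2 difference of 0.88 ± 0.41 (SD). In 2-month mutants the cortex-labelled libraries had 194 CPM (mouse M2617), 192 (M2621) and 192 (M2624), and the brainstem-labelled ones 129, 116 and 84.0 in the same order. In end-stage mutants they had 271 and 169 CPM in mouse M1376 and 327 and 119 CPM in mouse M1524. The 2 sets of libraries do not overlap in either mutant group.

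Controls showed the same order of Adcy7 in each mouse. At 2 months the levels were 139 and 50.2 CPM in mouse M2618, 124 and 72.3 in mouse M2629, and 69.6 and 56.8 in mouse M2633, cortex-labelled first. At end-stage they were 171 and 122 CPM in mouse M1375 and 161 and 72.7 CPM in mouse M1521. Mouse M2633 had the smallest step of the controls at 2 months, and its cortex-labelled library overlapped the brainstem-labelled range of the others.

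With the mouse as a block, the region difference of Adcy7 passed the test in mutants at 2 months (log2 difference 0.83 ± 0.22, SE, adjusted p = 0.0322, edgeR) and at end-stage (1.07 ± 0.27, 0.037), and not in controls at 2 months (0.85 ± 0.22, 0.0891) or at end-stage (0.81 ± 0.27, 0.215). It was the 1 member called of 6 tested in each mutant group, where 8.86% of all genes were called at 2 months and 4.9% at end-stage. Of controls, no member passed, with 1.18% of all genes called at 2 months and 0.669% at end-stage, with 2 and 1 members at an unadjusted p below 0.05, and DESeq2 called Adcy7 in both. The interaction of genotype with region label was -0.02 ± 0.31 for Adcy7 at 2 months (adjusted p = 0.999) and 0.26 ± 0.38 at end-stage (0.979), so a difference between genotypes was not shown, and neither was equality. Marker sums of other cells moved with the region label too. With the genotype from the column name, in all 5 mutants the cortex-labelled library had the larger sum of monocyte markers (114 to 262 against 24.2 to 113 CPM) and of border-associated macrophage markers (58.6 to 278 against 5.44 to 37.5 CPM), and the smaller sum of microglial markers. In controls the cortex-labelled sum was the larger one for monocytes in 3 of 5 mice and for border-associated macrophages in 4 of 5, and the smaller one for microglia in 4 of 5. Over all 20 libraries Siglec1 led the border-associated macrophage list, with 10306 counts against 1540 for Ms4a7, the next gene. The part of these markers in the region difference of Adcy7 was not tested.

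Averaged over the 4 genotype and stage groups, a comparison added after the values were seen, the Adcy7 difference was 0.89 ± 0.12 (adjusted p = 0.000264, edgeR with the mouse as a block). In this comparison 17.6% of all genes were called. Adcy7 stayed called in all 16 alternatives, with log2 differences of 0.80 to 0.98. The single mutant groups were less stable: without the block the adjusted p was 0.0708 at 2 months and 0.0856 at end-stage, leaving out a mouse of the group gave 0.0739 (M2617), 0.0921 (M2621) and 0.246 (M2624) at 2 months and 0.0926 (M1376) and 0.614 (M1524) at end-stage, and the end-stage call was also lost without M2624 (0.0509) or M2629 (0.0618) and under the record reading (0.0578). Without the 4 mice of conflicting genotype the 2-month value was 0.0897. Over all 16 alternatives the adjusted p ran from 5.86e-06 to 0.246 at 2 months and from 2.78e-06 to 0.614 at end-stage.

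**Figure D4:**
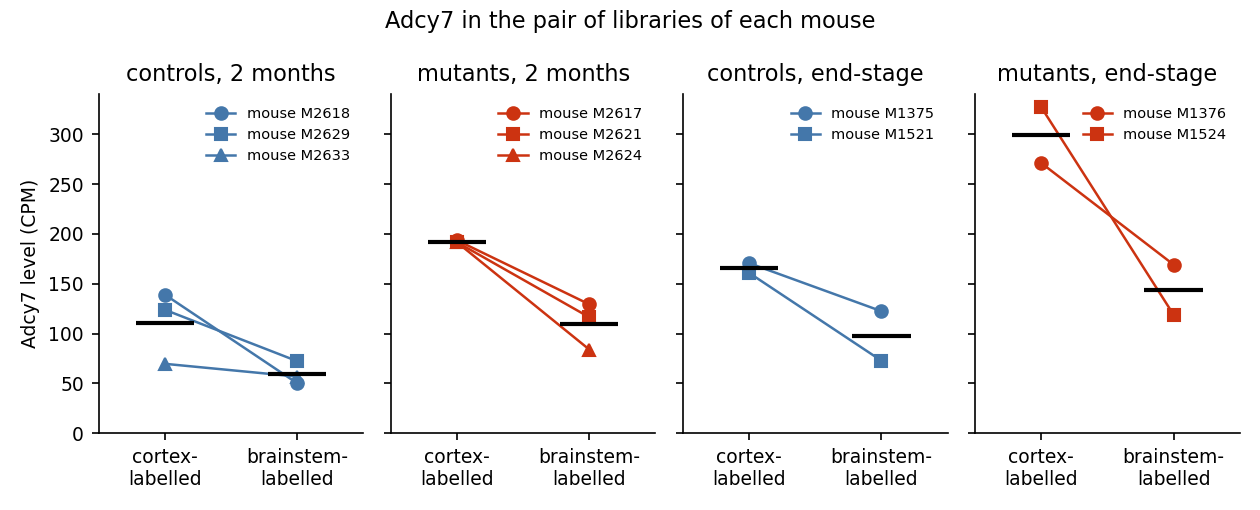
Adcy7 level in CPM in the cortex-labelled and brainstem-labelled library of each mouse, joined by a line, with a black bar at the group mean. The cortex-labelled library is the higher one in all 10 mice, and end-stage mutants reach 271 and 327 CPM there.

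**Figure D5:**
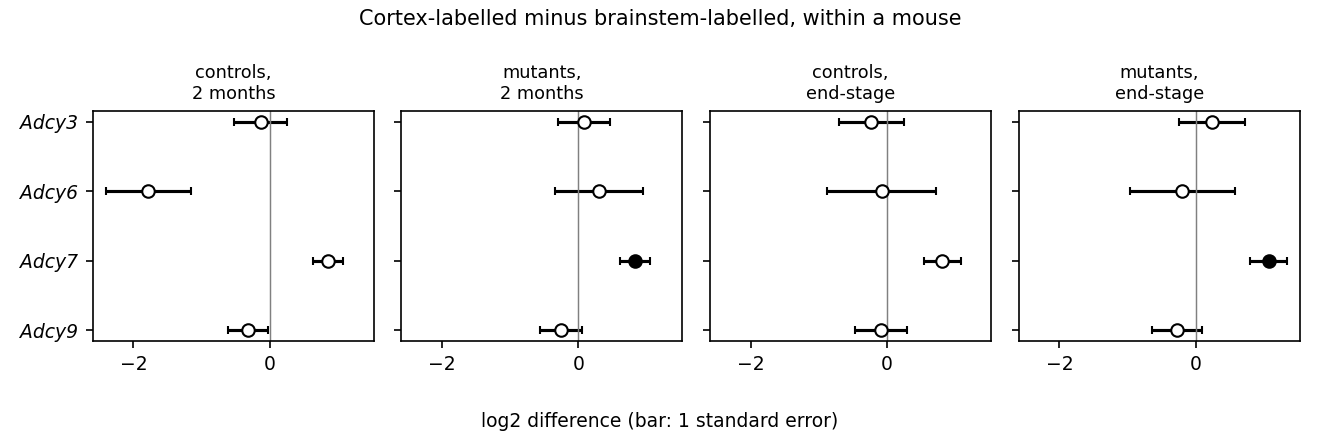
Cortex-labelled minus brainstem-labelled log2 differences of 4 members with 1 standard error in each genotype and stage, from the fit with the mouse as a block, with filled points for adjusted p under 0.05. Adcy7 lies between 0.81 and 1.07 in all 4 panels, and Adcy8 is not drawn because its region values chose it.

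By genotype, Adcy7 was higher in mutants in all 4 comparisons without passing the test. The log2 difference was 0.79 ± 0.25 in cortex-labelled (adjusted p = 0.0711, edgeR) and 0.88 ± 0.25 in brainstem-labelled 2-month libraries (0.226), and 0.85 ± 0.30 and 0.56 ± 0.30 at end-stage (0.141 and 0.545). Taking the geometric mean of each mouse's libraries, 2-month mutants had 158, 149 and 127 CPM against 83.5, 94.7 and 62.9 CPM in controls, and end-stage mutants 214 and 197 CPM against 145 and 108 CPM. The genotypes do not overlap at either stage. Under the record reading the 2-month differences turned to -0.35 and -0.74 (adjusted p = 1 for each).

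At 2 months no member was called in cortex-labelled libraries, where 5.45% of all genes were called, or in brainstem-labelled ones, where 0.0362% were. Of the 7 members, 1 and 2 had an unadjusted p below 0.05 by edgeR, and DESeq2 called 1 in each, Adcy7 (adjusted p = 0.0184 and 0.0412), as did limma-voom with the mouse as a replicate block in the cortex-labelled libraries (0.0355). Over 17 alternatives the adjusted p of Adcy7 ran from 0.0015 to 1 and from 0.000724 to 1. With the genotype from the column name, markers of other myeloid cells were higher in mutants in cortex-labelled libraries, while in brainstem-labelled ones the genotypes overlapped. At 2 months the monocyte list summed to 208 to 262 CPM in cortex-labelled mutant libraries and 26.6 to 47.5 CPM in control ones. In brainstem-labelled 2-month libraries it summed to 27.8 to 53.3 CPM in mutants and 28.8 to 42.2 CPM in controls. Of its 7 genes, 1 was at 0 in all 20 libraries, Ly6c2 in 13 and Chil3 in 14. The 8 genes of border-associated macrophages summed to 68.7 to 116 against 2.79 to 32.4 CPM in cortex-labelled 2-month libraries. In brainstem-labelled 2-month ones they summed to 10.1 to 31.3 against 1.41 to 17.5 CPM. Siglec1 led this list, with 10306 counts over all 20 libraries, while Mrc1 and Cd163 reached at most 6.56 and 2.54 CPM. The part of these marker lists in the Adcy7 level was not tested.

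Adcy3, a calcium-responsive cyclase known from olfactory neurons and cilia, and Adcy9 were detected in every library, at 2.97 to 22.9 CPM and 4.87 to 12.8 CPM. Adcy3 was higher in mutants in all 4 genotype comparisons, by 0.39 to 1.13 on the log2 scale, and none passed the test (lowest adjusted p = 0.304, edgeR). Under the record reading its 2-month differences were -0.15 (cortex-labelled) and 0.06 (brainstem-labelled). The highest Adcy3 value, 22.9 CPM in the cortex-labelled library of mutant M1524, stood well above the 6.05 CPM of mutant M1376. Without mouse M1524 the end-stage cortex-labelled difference was -0.13. Adcy9 differed by -0.36 to -0.05 between genotypes and by -0.32 to -0.09 between region labels, with no adjusted p below 0.685. Under the record reading its 2-month genotype differences turned to 0.21 (cortex-labelled) and 0.22 (brainstem-labelled). Its region difference averaged over the 4 genotype and stage groups was -0.23 ± 0.17 (SE, adjusted p = 0.403, edgeR).

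Adcy6, a calcium-inhibited form, was lower in the cortex-labelled library of all 3 controls at 2 months, at 0.601, 0.551 and 0.859 CPM against 2.15, 1.76 and 3.10 CPM in mice M2618, M2629 and M2633. These libraries do not overlap, but the counts are few (11 to 53 per library) and the log2 difference of -1.78 ± 0.63 did not pass the test (adjusted p = 0.193, edgeR). Under the record reading, which puts other mice among the controls, it was -0.39. The same brainstem-labelled control libraries were above the 3 mutant ones, at 0.439 to 1.03 CPM (-1.51 ± 0.62, adjusted p = 0.487). Under the record reading that difference was +0.93.

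By stage, none of the 6 members other than Adcy8 passed the test in controls or mutants, by edgeR (0 to 2 per comparison had an unadjusted p below 0.05) or by DESeq2. In controls 0% of the 16595 genes were called in either region label by edgeR, although 1432 (cortex-labelled) and 1367 (brainstem-labelled) had an unadjusted p below 0.05, and DESeq2 called 29 and 53. In mutants edgeR called 1.84% of genes in libraries with the cortex label and 0.0422% in those with the brainstem label. Adcy7 was higher at end-stage in all 4 stage comparisons, by 0.39 to 0.71 on the log2 scale (lowest adjusted p = 0.29). Under the record reading the Adcy7 difference was -0.03 (cortex-labelled) and -0.12 (brainstem-labelled) in controls and 1.16 and 1.18 in mutants, so its direction by stage in controls depends on the reading. The interaction of genotype with region label called none of these 6 members either, with 0.723% of all genes called at 2 months and 0.38% at end-stage. At an unadjusted p below 0.05 edgeR had 1 of them at 2 months (Adcy6) and 0 at end-stage, and DESeq2 called none.

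Genes whose pattern was most like that of Adcy8 were ranked by Pearson's r of log2(CPM + 0.1) over the 20 libraries among 10110 genes. The 5 highest were Btbd17 (r = 0.91, Spearman's rho = 0.87), Fcrls (0.88, 0.84), which encodes a Fc receptor-like protein used as a marker of microglia, Gprasp2 (0.88, 0.92), Jam3 (0.85, 0.82), a junctional adhesion molecule, and Lyzl4 (0.85, 0.89). The libraries share mice in pairs, groups and a common scaling, so these are descriptions. Btbd17 shows the likeness: its mean was 6.87 ± 3.63 CPM in brainstem-labelled and 0.912 ± 0.869 CPM in cortex-labelled 2-month controls (SD, n = 3 each), and it had no count in either cortex-labelled end-stage mutant library. Adcy7 had r = -0.65 with Adcy8 over the same libraries.

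The receptors, G proteins and effectors around the cyclases were read from 12 lists holding 124 genes, 94 of which were tested. The lists were chosen with earlier results of these data known. The shares called, here and in the paragraphs below, are therefore descriptions and no test of the pathway. In cortex-labelled end-stage libraries 3 of the 94 rose and 7 fell in mutants, 10.6% of the list against 4.01% of all genes. Of 16 Gi-coupled receptors 5 fell and none rose, with a list median log2 difference of -0.41 against 0.02 over all genes. They included Gabbr1, a subunit of the GABA-B receptor (11.7 ± 0.883 against 39.8 ± 1.36 CPM, SD, n = 2 each, log2 difference -1.76, adjusted p = 0.000173, edgeR), and the purinergic receptor P2ry13 (963 ± 27.2 against 2527 ± 3.65 CPM, -1.39). Gpr183, an oxysterol receptor, fell by 1.03 on the log2 scale. P2ry12 and the prostaglandin E2 receptor Ptger3, which had no count in either mutant library and 3.15 ± 1.84 CPM in controls, were the other two, and they are named here because the count was small. P2ry12 and Cx3cr1 of this list are also in the list of microglial markers. That list summed to 47186 and 55256 CPM in these mutant libraries and 65440 and 69432 CPM in the control ones. Monocyte markers were higher, at 114 and 196 against 25.4 and 34.6 CPM. The part of these markers in the receptor differences was not tested.

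Among Gs-coupled receptors in the same libraries, Ptger4, the prostaglandin E2 receptor that raises cyclic AMP, rose (70.1 ± 10.3 against 2.14 ± 2.88 CPM, 4.96, adjusted p = 0.0171). The response genes Dusp1, a phosphatase of MAP kinases, and Fos rose, by 2.76 and 5.54 on the log2 scale (adjusted p = 0.000122 and 0.049). Fos went from 0.424 ± 0.599 to 17.9 ± 4.27 CPM. Calm2, a calmodulin gene, fell by 1.28. The number called moved with the mice used: without mutant M1524 it was 2 up and 4 down, without mutant M1376 it was 1 and 6, without control M1375 it was 2 and 6, and by the record reading, which reaches these libraries only through the shared spread, 1 and 3.

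At 2 months 2 of 94 genes rose and 9 fell in cortex-labelled mutant libraries, 11.7% of the list against 5.45% of all genes, and none was called in brainstem-labelled ones by edgeR, where DESeq2 called 2. Of Gi-coupled receptors 1 rose and 4 fell, with a list median of -0.39 against -0.01 over all genes: Gpr183 (345 ± 27.5 against 669 ± 26.2 CPM, SD, n = 3 each), P2ry13 (-0.99) and P2ry12 (-1.10) led, followed by Gabbr1 and, as the one that rose, the niacin receptor Hcar2 (309 ± 29.7 against 36.7 ± 26.4 CPM). The small GTPase Rap1a (-0.58), which EPAC activates, and the cyclic AMP phosphodiesterase Pde4b (-0.88, adjusted p = 0.0497) fell. Calm3 rose by 1.07, while Calm2 and the calcineurin subunit Ppp3r1 fell. Calmodulin genes encode one protein and resemble each other, so their counts may share reads. Under the record reading, and without the 4 mice of conflicting genotype, none of these genes was called. P2ry12 is also in the list of microglial markers. With the genotype from the column name that list summed to 59606 to 63155 CPM in cortex-labelled 2-month mutants. In controls it summed to 66099 to 69740 CPM. The part of these markers in the receptor differences was not tested.

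Between region labels the pathway split within its families. Averaged over the 4 groups with the mouse as a block, 19 of 94 genes were higher and 21 lower in cortex-labelled libraries, and 12 and 13 without the 4 mice of conflicting genotype. The former count is 42.6% of the list, against 17.6% of all genes. Ptger3 was lower in 10 of 10 mice (3.62 ± 3.76 against 28.7 ± 15.4 CPM, SD, n = 10, log2 difference -5.11, adjusted p = 6.75e-07, edgeR), while Ptger4 was higher in 10 of 10 (log2 difference 2.62, adjusted p = 6.56e-05). Thus a Gi-coupled and a Gs-coupled receptor of the same ligand differed in opposite directions. Of the Gi-coupled receptors 7 were higher and 7 lower (median 0.07, against 0.01 over all genes), among them Hcar2 (2.07) and P2ry12 (-1.17). Of the Gs-coupled ones the acid-sensing receptor Gpr65 was higher (2.35) and the VIP receptor Vipr1 lower (-1.14). The microglial marker list, which also holds P2ry12, had the smaller sum with the cortex label in 4 of 5 controls and 5 of 5 mutants.

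Downstream, 5 of the 7 tested protein kinase A genes differed by region label, in the comparison where 17.6% of all genes did. The kinase inhibitor Pkib was higher in 10 of 10 mice (52.9 ± 19.3 against 25.4 ± 8.88 CPM, 1.08, adjusted p = 1.23e-05, edgeR) and the regulatory subunit Prkar1b in 8 of 10 (0.86), whereas the regulatory subunit Prkar1a was lower in 10 of 10 (-0.33), as were the catalytic subunits Prkaca and Prkacb by the test. The inhibitory G protein subunits Gnai3 (-0.42) and Gnai2 (-0.19) were lower. Of phosphodiesterases Pde3b was lower (-0.53) and Pde8b (0.49) and Pde4a (0.55) were higher. Calm2 was lower in 10 of 10 mice (-0.65). Gnas, the stimulatory G protein itself, was not called, at 6.85 ± 2.2 against 4.97 ± 1.41 CPM, higher with the cortex label in 8 of 10 mice. Its level was low, at 2.39 to 10.0 CPM against 940 to 1806 CPM for Gnai2, so equality was not shown. The soluble cyclase Adcy10 did not pass the filter.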

How the data were processed

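Raw gene counts of the 20 libraries, not normalized, were deposited by the authors. The submitters' processing notes list FastQC, Subread, edgeR and mm10 with no versions. Strand and multi-mapping settings: not given in the sources used here. Per the labels' protocols, RNA was amplified with a low-input kit. Identifiers were matched to GENCODE M21 symbols (55394 of 55487; 300 without the version), and the 93 others held 0.00123% of counts. Counts were scaled by TMM to CPM (counts scaled to a common library total). edgeR 4.0.16 (R 4.3.3) quasi-likelihood tests used filterByExpr and Benjamini-Hochberg adjustment over 16595 genes at 0.05. Genotype and stage came from a fit of 8 groups, region label and its interaction from a fit with the mouse as a block. Both libraries of a mouse come from the same animal, and their deviations from the group means correlated at 0.10 to 0.26. The 4 groups of 2 and 4 of 3 libraries limit precision, and intervals and limits cover counting error only. The tests were tried on simulated counts, drawn for each library separately, with changes put only into genes of higher level. Members of low level and an effect shared by the libraries of a mouse were not covered. Alternatives were RLE scaling, DESeq2 1.42.0, limma-voom 3.58.1, no filter, other groupings and leaving out each mouse. Members and gene lists were chosen with earlier results of these data known. Named genes were all members, up to 3 called genes per pathway list and comparison by smallest p, and the 5 genes most like Adcy8. Some genes are counted in the lists but not reported here by name.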

Additional observations from a re-analysis of the deposited data

Results flagged for a closer look

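Adcy8 moved in opposite directions with stage in the 2 genotypes in brainstem-labelled libraries. Mean CPM at end-stage was 1.68 times that at 2 months in controls, where both end-stage libraries lay above all 3 at 2 months, and 0.398 times in mutants, where both lay below all 3, the closest pair being 2.109 and 2.113 CPM. The difference was not tested, since stage is one of the values that chose Adcy8. The genotype of 4 of the 2-month mice depends on the reading of the labels, and the libraries do not overlap in either.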

How the results depend on the processing

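The number of members called moved with the processing in 8 of 15 comparisons, and each time the member was Adcy7 or Adcy8. Among mutant against control comparisons, DESeq2 and the analysis with no low-count filter called 1 in each 2-month comparison, and limma-voom with the replicate block called 1 in cortex-labelled 2-month libraries. With no filter, 2 were called in cortex-labelled and 1 in brainstem-labelled end-stage libraries. The limma-voom replicate block called 0 in cortex-labelled end-stage libraries, where leaving out a mouse gave 0 to 1. For region labels, DESeq2 and no filter called 1 in each control group, and 0 were called with no replicate block in each mutant group, without the 4 mice of conflicting genotype in 2-month mutants, and under the record reading in end-stage mutants; leaving out a mouse gave 0 to 1 in both. The record reading turned Adcy7 to -0.35 (cortex-labelled) and -0.74 (brainstem-labelled) and Adcy8 to 4.25 and 0.46 at 2 months. It also turned Adcy9 to 0.21 and 0.22, Adcy3 to -0.15 (cortex-labelled) and Adcy6 to 0.93 (brainstem-labelled). In cortex-labelled 2-month libraries Adcy8 ranged from -3.22 to 0.68 (without mouse M2633) over mice left out and was 6.5 without the 4 mice, and in cortex-labelled end-stage libraries Adcy3 ranged from -0.13 (without mouse M1524) to 1.8. The mean region ratio of Adcy8 stayed between -4.46 (pseudocount 0.01 CPM) and -1.74 (1 CPM); with 1 CPM it was -1.84 in 2-month and -1.13 in end-stage mutants, and with 0.01 CPM -5.16 in the latter. Counts of all genes called moved too: in cortex-labelled mutants against controls from 666 at end-stage to 171 (record reading) and 1282 (no filter), and from 904 at 2 months to 1 (record reading) and 1551 (no filter). The pathway count in cortex-labelled end-stage libraries, 3 up and 7 down, was 8 and 9 with DESeq2 and 12 and 9 of 124 with no filter. The causes were not tested. Members under about 1 CPM rest on few counts.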
